A study of Mus musculus with 23 samples.

Results

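The regions described here are 4438 wide stretches of open chromatin in 3T3-L1 cells, a mouse embryonic fibroblast-derived line that behaves as a preadipocyte and turns into fat-storing cells when given hormones. They were taken from the 84019 peaks that the authors counted on the first day of sampling. A peak was kept if it lay outside the mitochondrial genome, had no gene name in the authors' normalised table, was at least 600 bases wide (end minus start), and overlapped by at least 1 base a peak of both later days. Of the 71751 nuclear peaks without an authors' gene, 5450 were that wide, and 1012 of these were missing on a later day. The choice thus used the peak calls and their widths, so width, presence on each day and change between days are given below as descriptions, without tests. The contrast between the siRNA arms played no part in the choice and was tested.

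The assay was ATAC-seq, in which the Tn5 transposase inserts sequencing adapters where DNA is not wrapped or blocked, so that many fragments mark open DNA. Cells were reverse-transfected while sub-confluent, on day -3 of the differentiation schedule, with 50 nM siRNA against Kdm5c or with 50 nM of a non-targeting (scramble) siRNA, and nuclei were taken 24, 48 and 72 hours later, called days -2, -1 and 0. The Kdm5c siRNA arm had 4 libraries on day -2, 4 on day -1 and 3 on day 0 (replicates 1, 2 and 4), and the scramble arm had 4 on each day. Cells of both arms had thus been transfected, and the labels name no untransfected cells. The labels do not say whether replicates were separate cultures, so the p-values given here speak only to the scatter among these libraries. These libraries do not measure Kdm5c RNA or protein, so the knockdown itself was not checked here.

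Kdm5c encodes a lysine demethylase that removes methyl groups from histone tails at gene starts and enhancers. Gene starts are marked by short open stretches where the transcription machinery assembles, and enhancers are open stretches, often far from any start, that bind transcription factors and act on genes at a distance. In fibroblast-like cells enhancers are commonly bound by AP-1, TEAD and RUNX factors, and the C/EBP factors join them early in fat cell formation. Some parts of the genome also gather reads without being regulatory, among them satellite repeats, ribosomal RNA genes and nuclear copies of mitochondrial DNA.

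Total counts ran from 4474964 to 14913397 per library, of which 56.4% to 93.2% fell on the mitochondrial genome, leaving 781309 to 3345583 nuclear counts. The mitochondrial share was 63.8% ± 6.26 in Kdm5c siRNA and 73.5% ± 2.85 in scramble libraries on day -2 (SD, n = 4 each). On day -1 it was 90.0% ± 2.49 in Kdm5c siRNA and 92.3% ± 1.0 in scramble libraries (n = 4 each). On day 0 it was 84.1% ± 4.58 (n = 3) in Kdm5c siRNA and 88.8% ± 1.77 (n = 4) in scramble libraries. The median count per wide peak was 27 to 92 across libraries. Fibroblast markers carried an authors' gene peak at 8 of 10 genes on day -2 and 7 of 10 on the later days, with Pdgfra and Cd34 absent on all days, and of 5 mature adipocyte markers 1 on day -2 and on day 0 (Lep) and 0 on day -1. Markers of other cell types also had such peaks on day -2: 2 of 4 muscle (Myod1, Myog), 2 of 4 endothelial (Cdh5, Kdr), 2 of 3 neural (Sox2, Tubb3), 1 of 4 epithelial (Krt8) and 1 of 4 leukocyte markers (Csf1r). On the later days these came down to Kdr on both and Tubb3 on day 0. One library stood apart within the wide peaks: in Kdm5c siRNA replicate 2 of day -2 the peaks away from gene starts had a median log2 level of -0.22 relative to the scramble mean, against -0.07 to 0.05 in the other 7 libraries of that day.

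The regions were called wide and distal, and the second word held only in part. RefSeq gene starts could be set beside 4281 of them; the other 157, of which 119 are on chromosome 18 and 38 on unplaced scaffolds, were not placed here. Among the 4281, 679 (15.9%) overlapped the window from 250 bases before to 50 bases after the start of a protein-coding gene, and 167 (3.90%) the start of a long non-coding RNA only. A further 1682 (39.3%) lay inside a coding gene away from any listed start and 1753 (40.9%) outside coding genes. The annotation lacked the starts of some coding genes: of 32 matrix genes in a list used below, it held 19. A peak at a missing start is not counted as at a coding start. Shares, distances and splits by position are therefore for listed starts only. Narrow peaks chosen by the same rule but under 600 bases wide, 7420 in number, overlapped a coding start in 4.13% of cases, while peaks with an authors' gene did so in 64.1%. The median distance from the middle of a wide peak to the nearest coding start was 29.1 kb, against 37.3 kb for the narrow ones. Coding starts of 675 genes lay under a wide peak without an authors' gene, and 195 of these genes were named by the authors at another peak on day -2. The set is therefore called wide all-day peaks below, and starts are kept apart from the rest.

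**Figure D1:**
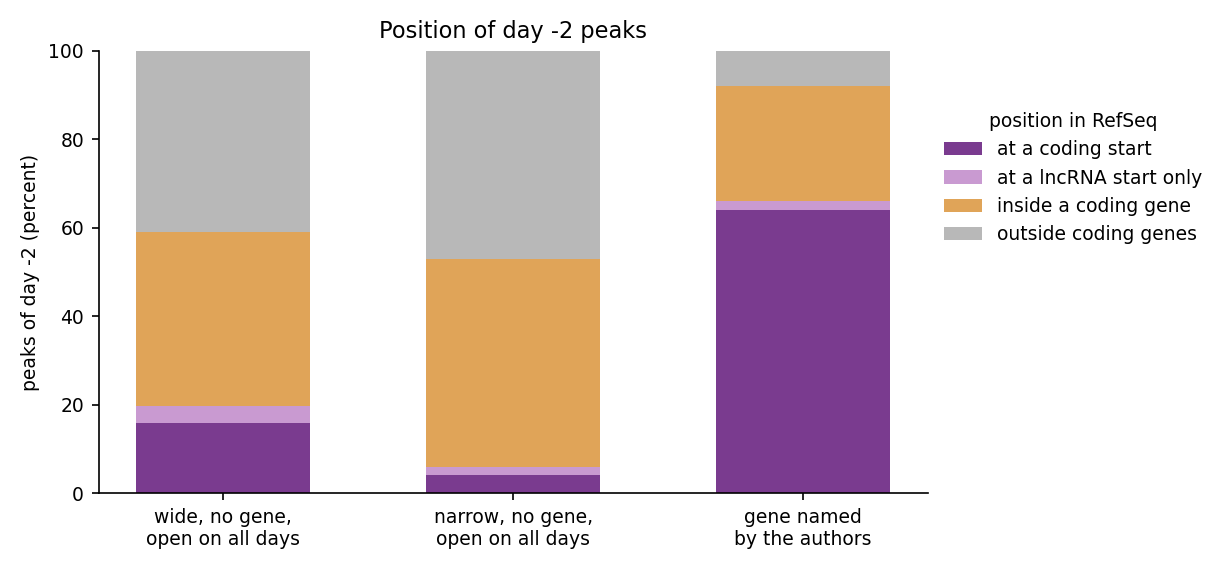
Share of day -2 peaks in each position relative to RefSeq genes (GRCm38.p6), in percent, for the 4281 wide all-day peaks with start annotation, for narrow all-day peaks and for peaks named with a gene by the authors. Listed coding starts make up 15.9% of the wide peaks, 4.13% of the narrow ones and 64.1% of the named ones.

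Sequences were read at starts only. The stretches below are the 200 bases before the start of each coding gene whose start lies under a wide peak picked for its high level or for its place beside a gene of the lists used here. They come from RefSeq on GRCm38.p6, read 5′ to 3′ on the gene's strand, and each lies wholly inside its peak. Capitals mark matches, on either strand, to letters that a few kinds of factor are known to bind, and matches that touch or overlap are capitalised together. The letters were TGANTCA for AP-1, with GGAATG for the TEAD family, with TGTGGT for the RUNX family, and with TTGCNNAA for the C/EBP family. The other two were CCAAT for the box of that name and GGGCGG for the GC box. A match is only a match of letters.
Aktip, chr8:91134028-91134227, minus strand: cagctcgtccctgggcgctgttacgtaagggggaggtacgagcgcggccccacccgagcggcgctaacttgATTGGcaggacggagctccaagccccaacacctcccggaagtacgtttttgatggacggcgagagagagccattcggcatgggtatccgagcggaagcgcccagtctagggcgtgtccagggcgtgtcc
Rps6ka5, chr12:100725121-100725320, minus strand: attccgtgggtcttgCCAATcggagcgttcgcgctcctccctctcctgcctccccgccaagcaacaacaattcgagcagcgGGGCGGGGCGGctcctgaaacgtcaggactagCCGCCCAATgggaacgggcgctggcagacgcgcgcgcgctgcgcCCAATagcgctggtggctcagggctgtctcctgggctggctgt
Amotl2, chr9:102717604-102717803, plus strand: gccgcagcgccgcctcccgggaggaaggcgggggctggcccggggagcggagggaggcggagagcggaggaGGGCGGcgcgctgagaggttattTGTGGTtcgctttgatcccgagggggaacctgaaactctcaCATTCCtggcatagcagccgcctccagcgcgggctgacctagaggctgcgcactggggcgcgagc
Runx1, chr16:92697330-92697529, minus strand: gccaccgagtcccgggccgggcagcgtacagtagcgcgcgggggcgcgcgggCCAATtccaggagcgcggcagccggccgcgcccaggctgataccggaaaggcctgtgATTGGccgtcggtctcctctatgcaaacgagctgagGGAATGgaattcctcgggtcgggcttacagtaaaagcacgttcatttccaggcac
Fbn1, chr2:125506439-125506638, minus strand: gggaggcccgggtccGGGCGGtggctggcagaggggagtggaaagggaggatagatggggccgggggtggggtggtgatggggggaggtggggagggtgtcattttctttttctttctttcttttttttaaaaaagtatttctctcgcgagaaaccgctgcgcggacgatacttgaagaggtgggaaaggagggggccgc
Cdk6, chr5:3343693-3343892, plus strand: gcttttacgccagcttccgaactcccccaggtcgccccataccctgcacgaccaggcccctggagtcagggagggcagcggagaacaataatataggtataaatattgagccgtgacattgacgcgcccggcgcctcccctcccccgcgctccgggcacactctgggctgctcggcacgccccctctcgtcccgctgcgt
Fkbp5, chr17:28486150-28486349, minus strand: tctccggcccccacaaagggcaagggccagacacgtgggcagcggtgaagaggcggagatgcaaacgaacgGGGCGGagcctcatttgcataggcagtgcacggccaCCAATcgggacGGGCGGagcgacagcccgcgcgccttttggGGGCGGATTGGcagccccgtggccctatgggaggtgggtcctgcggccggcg

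All 7 stretches were GC-rich, from 58.5% G and C in Fbn1 to 70.5% in Amotl2, and held 11 to 22 CpG pairs. None held the AP-1 or C/EBP letters, and Cdk6 held none of the motifs searched. The same was seen over the 796 windows of 300 bases around coding starts that overlapped a wide peak: their median GC content was 64.0%, close to the 62.7% at starts under peaks named by the authors (9352 windows) and above the 49.0% at starts without a day -2 peak (10408 windows). GC box letters stood in 71.0% of the windows under wide peaks and in 46.2% of all 21262 windows, the CCAAT letters in 37.8% and 38.2%, the AP-1 letters in 5.03% and 6.99%, the TEAD letters in 11.1% and 13.6%, the RUNX letters in 11.7% and 15.0%, and the C/EBP letters in 6.16% and 10.2%. Windows under narrow peaks held the AP-1 letters in 9.55% and GC box letters in 56.4%. Those under peaks named by the authors held the AP-1 letters in 4.20% and GC box letters in 70.7%, near the shares under wide peaks. These shares describe start windows only, and the sequence of wide peaks away from starts was not analysed here.

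Widths spread from 600 to 4563 bases with a median of 773, and 861 peaks (19.4%) reached 1000 bases. On the later days the same places were narrower in the authors' calls, with median widths of 621 bases on day -1 and 617 on day 0, and 53.6% and 53.1% were still at least 600 wide. Peaks at coding starts were already wider on day -2, with a median of 871 bases against 757 inside coding genes and 754 outside. Of them 68.8% were still at least 600 wide on day -1 and 77.9% on day 0, against 51.5% and 46.3% of those inside coding genes and 48.8% and 48.4% of those outside. At the limit of 600 stood a peak at the start of Etv1, an ETS family transcription factor gene, with a mean of 47.6 counts over the 8 day -2 libraries, a peak overlapping Coa8 with 34.8 and a peak inside Vwa8 with 43.4. Just outside, at 599 bases, peaks with Bok, Efcab10 and Syne3 as nearest starts had 66.9, 49.2 and 108 counts. Nuclear depth was lower on the later days, and its part in the widths was not tested.

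The peaks were spread over all chromosomes, with 415 on chromosome 5, 390 on chromosome 2, 389 on chromosome 6 and 337 on chromosome 1. Set against the peaks that the authors named, chromosome 6 held 51.5 wide peaks per 100 named ones and chromosome 5 held 49.5, while chromosome 11 held 19.9. Most stood alone: neighbouring peaks with short gaps, none over 12.496 kb, formed 326 runs that took in 789 peaks (17.8%), and 52 runs had at least 3. The longest run, of 26 peaks, covered bases 1504 to 113818 of the unplaced scaffold JH584304.1. The next were 14 peaks at chr9:3000009-3038227 and, in a stretch of chromosome 10, 10 peaks at chr10:117377436-117437148 beside Cpsf6, a pre-mRNA 3′ end processing factor gene, and 10 at chr10:117636370-117688829 beside Cpm and Mdm2. In all, 1167 peaks (26.3%) lay in 500 kb windows whose summed counts were over 4 times those of the median window. The same held for 21.4% of narrow all-day peaks and 24.0% of peaks with an authors' gene.

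A few regions took a large part of the signal. The members held 20.9% ± 0.912 of nuclear counts in Kdm5c siRNA and 21.4% ± 0.189 in scramble libraries on day -2 (SD, n = 4 each). On day -1 the share was 28.0% ± 0.642 in Kdm5c siRNA and 28.0% ± 0.739 in scramble libraries (n = 4 each). Day 0 gave 26.2% ± 0.566 (n = 3) in Kdm5c siRNA and 26.6% ± 0.370 (n = 4) in scramble libraries. On each day the arms differed by less than the SD within the Kdm5c siRNA arm. Without the peaks in dense windows the share on day -2 was 9.85% in Kdm5c siRNA and 10.4% in scramble libraries. Of all counts in the 4438 peaks on day -2, 16.6% fell in 2 of them and 21.5% in 10.

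The highest was a peak at chr2:98666245-98667321, in a stretch far from any coding start. Its normalised counts, scaled by effective library size within the day, were 46661, 35647, 38421 and 40971 in Kdm5c siRNA and 40600, 37038, 37287 and 45987 in scramble libraries of day -2. A peak at chr17:39843033-39846764 over Rn18s-rs5, annotated as a pseudogene of 18S ribosomal RNA, had 45673, 61199, 32472 and 42056 in Kdm5c siRNA and 47081, 41714, 35441 and 42356 in scramble libraries. In both the arms overlapped, and neither passed the threshold on any day (lowest adjusted p = 0.915, edgeR quasi-likelihood test). Under total-count scaling the Rn18s-rs5 peak was called on day -2 (log2 0.57, adjusted p = 0.047, edgeR). The widest peak of all, 4563 bases at chr1:24611585-24616148 over the pseudogenes Gm10222 and Gm10925, is described with the siRNA contrast.

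Most peaks were far below these. Over all the wide peaks of day -2 the median was 86.7 normalised counts per kb in Kdm5c siRNA and 89.7 in scramble libraries, and the middle 90% of peaks lay between 41.5 and 184 in Kdm5c siRNA and between 42.3 and 194 in scramble libraries. The highest levels per kb outside the dense windows were led by a peak at chr10:22142295-22143200 inside E030030I06Rik, with 379, 396, 291 and 399 normalised counts in Kdm5c siRNA and 368, 377, 315 and 362 in scramble libraries. Among the 8 highest were 2 coding starts. The start of Rps6ka5, which encodes the nuclear kinase MSK1 that phosphorylates histones after mitogen and stress signals, had 265, 290, 341 and 283 in Kdm5c siRNA and 250, 331, 293 and 267 in scramble libraries. The start of Aktip, which encodes an AKT-interacting protein, had 253, 226, 256 and 260 in Kdm5c siRNA and 234, 261, 290 and 271 in scramble libraries. The arms overlapped at each of these peaks.

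The question of the siRNA contrast was whether lowering Kdm5c opened or closed these regions within 3 days. Hardly any passed the test. On day -2, 4424 wide peaks passed the low-count filter and 1 was called at an adjusted p under 0.05 (edgeR quasi-likelihood test), where 0.00404% of all 49455 peaks tested were called. That count depends on the method: DESeq2 called 0, and scaling by total counts, mitochondrial ones included, called 110, all of them higher in Kdm5c siRNA. Total-count scaling moved the median log2 fold change of day -2 to 0.42 over all peaks tested and to 0.37 over the wide ones. On day -1, 0 of 4249 were called, against 0.0% of 23304, and 217 had an unadjusted p under 0.05; DESeq2 also called 0. On day 0, 1 of 4301 was called, against 0.00352% of 28398. At an unadjusted p under 0.05 stood 6.33% of the wide peaks on day -2, 5.11% on day -1 and 7.95% on day 0, beside 4.63%, 5.37% and 6.0% of all peaks tested. The libraries of the arms did not overlap at 2.92%, 3.08% and 7.56% of the wide peaks, beside 2.86%, 3.28% and 6.22% of all tested. The median log2 fold change was -0.04 on day -2, -0.0009 on day -1 and 0.03 on day 0, beside 0.0002, -0.003 and -0.01 over all peaks tested.

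These peaks were measured better than most, so the range left for an effect relative to the other peaks of a day is narrow. The median standard error of a log2 fold change was 0.19 on day -2, 0.23 on day -1 and 0.24 on day 0, against 0.35, 0.28 and 0.32 over all peaks tested. The 95% interval lay wholly between a halving and a doubling for 96.6% of wide peaks on day -2, 88.3% on day -1 and 78.9% on day 0. Over all peaks tested that share was 53.4%, 70.6% and 57.8%. Peaks with an authors' gene had a median standard error of 0.20 on day -2 and 0.22 on day -1, near that of the wide ones. The intervals hold for scaling by effective library size, which sets the median of all peaks tested near 0. Total-count scaling moved the median of the wide peaks to 0.37, 0.38 and 0.59 on days -2, -1 and 0. A shift shared by all peaks is not bounded by these intervals.

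**Figure D2:**
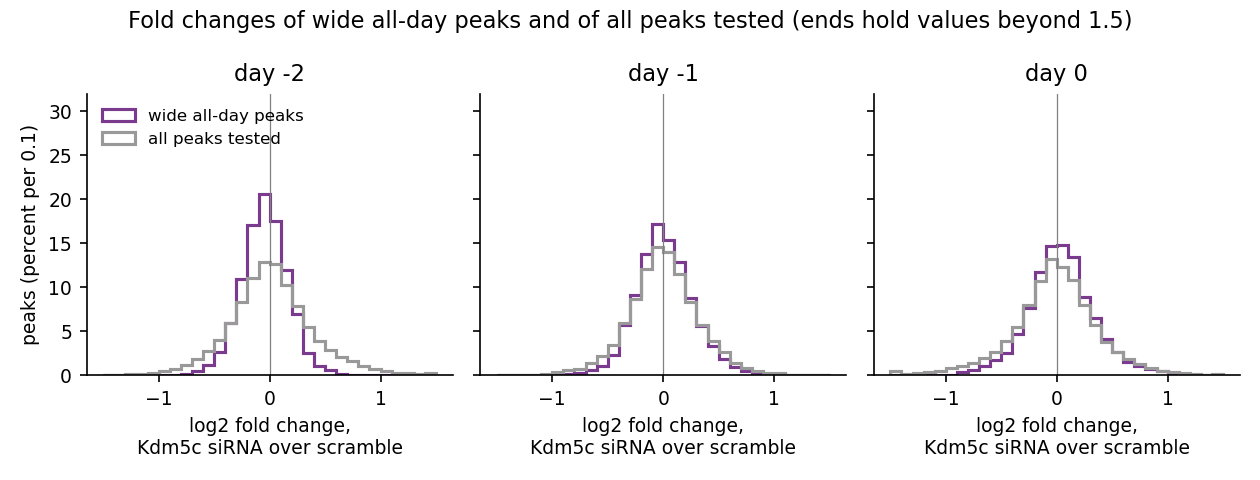
Distribution of log2 fold changes, Kdm5c siRNA over scramble, on days -2, -1 and 0, as the percentage of peaks per step of 0.1, for the wide all-day peaks and for all peaks tested on that day. Both curves centre near 0 on each day, with median values of -0.04, -0.0009 and 0.03 for the wide peaks, which spread less on day -2 than all peaks do.

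The peak called on day -2 was the widest one, over the pseudogenes Gm10222 and Gm10925. It had 1812, 2478, 2622 and 3535 normalised counts in Kdm5c siRNA and 3514, 5222, 3823 and 4168 in scramble libraries. The arms met only at replicate 4 of the siRNA and replicate 1 of the scramble, and the log2 fold change was -0.68 ± 0.12 (SE, adjusted p = 0.0041). Without Kdm5c siRNA replicate 1 it was -0.55 and without scramble replicate 2 it was -0.57, and neither passed the threshold; DESeq2 gave -0.71, also short of it. Under total-count scaling the log2 fold change was -0.28 (adjusted p = 0.30, edgeR). On day -1 the peak had 4321, 7338, 5534 and 4255 in Kdm5c siRNA and 6096, 6702, 8570 and 8180 in scramble libraries (log2 -0.46 ± 0.13, adjusted p = 0.70, edgeR). On day 0 it had 6019, 5437 and 3263 in Kdm5c siRNA and 6160, 6252, 6002 and 9475 in scramble libraries (log2 -0.51 ± 0.12, adjusted p = 0.089, edgeR). It passed the threshold on that day without Kdm5c siRNA replicate 1 (-0.68) and with nuclear peaks only (-0.51).

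The peak called on day 0, chr2:22588662-22590179, is 1517 bases wide and lies inside Myo3a, which encodes an unconventional myosin of the inner ear. It had 273, 368 and 173 normalised counts in Kdm5c siRNA and 362, 393, 432 and 482 in scramble libraries. One siRNA library lay within the scramble range and the other 2 below it, with a log2 fold change of -0.64 ± 0.13 (adjusted p = 0.026, edgeR). The call was lost without Kdm5c siRNA replicate 4 (-0.37), scramble replicate 2 (-0.67), replicate 3 (-0.62) or replicate 4 (-0.57), under DESeq2 (-0.60), and under total-count scaling (-0.14, adjusted p = 0.73, edgeR). On day -2 it had 117, 73.9, 169 and 217 in Kdm5c siRNA and 147, 222, 228 and 295 in scramble libraries (log2 -0.66 ± 0.15, adjusted p = 0.40, edgeR). That day's difference passed without Kdm5c siRNA replicate 3 (-0.79) or 4 (-0.92), or without scramble replicate 1 (-0.82). A neighbouring wide peak, chr2:22587395-22588301, had 154, 5.28, 470 and 218 in Kdm5c siRNA on day -2, against 339, 374, 321 and 336 in scramble libraries, so that siRNA replicates ran from far below to above every scramble library (log2 -0.69 ± 0.20, adjusted p = 0.98, edgeR). It passed without Kdm5c siRNA replicate 3 (-1.55) or scramble replicate 1 (-0.70).

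The arms were closer at both called peaks when the counts were set against mitochondrial ones. Per 1000000 mitochondrial counts, the widest peak had 594 ± 46.1 counts in Kdm5c siRNA and 624 ± 50.0 in scramble libraries on day -2 (SD, n = 4 each). It had 528 ± 46.1 in Kdm5c siRNA and 559 ± 30.1 in scramble libraries on day -1 (n = 4 each), then 618 ± 28.0 (n = 3) in Kdm5c siRNA and 584 ± 36.4 (n = 4) in scramble libraries on day 0. The Myo3a peak had 32.3 ± 9.18 in Kdm5c siRNA and 33.1 ± 6.79 in scramble libraries on day -2 (n = 4 each). On day -1 it had 35.2 ± 0.240 in Kdm5c siRNA and 34.8 ± 3.18 in scramble libraries (n = 4 each), while day 0 gave 34.0 ± 5.43 (n = 3) in Kdm5c siRNA and 35.4 ± 3.34 (n = 4) in scramble libraries. On this scale the arms overlapped on each day for both peaks. The ratio of mitochondrial to nuclear counts itself was 1.82 ± 0.479 in Kdm5c siRNA and 2.81 ± 0.408 in scramble libraries on day -2 (n = 4 each). It was 9.52 ± 2.67 in Kdm5c siRNA and 12.2 ± 1.64 in scramble libraries on day -1 (n = 4 each), then 5.59 ± 1.62 (n = 3) in Kdm5c siRNA and 8.17 ± 1.69 (n = 4) in scramble libraries on day 0. Since that ratio was lower in the Kdm5c siRNA arm on each day, the mitochondrial scale lifts every peak of that arm relative to scramble, not only these. The peak at chr7:47022261-47022952, described next, had 11.6 ± 1.85 in Kdm5c siRNA and 12.2 ± 2.61 in scramble libraries of day -2 on it, and one inside Gabarapl1 at chr6:129540324-129540973 had 14.4 ± 2.56 in Kdm5c siRNA and 14.1 ± 3.88 in scramble libraries (n = 4 each). On later days these comparison peaks were far lower, where the called ones kept a similar level. Means of the first were 3.75 in Kdm5c siRNA and 2.12 in scramble libraries on day -1. On day 0 they were 4.87 in Kdm5c siRNA and 2.99 in scramble libraries. The second had 3.07 in Kdm5c siRNA and 2.56 in scramble libraries on day -1. Its day 0 means were 2.39 in Kdm5c siRNA and 1.27 in scramble libraries. The neighbour of the Myo3a peak, chr2:22587395-22588301, was not called on any day and did not fall as far. Its means were 46.3 in Kdm5c siRNA and 51.8 in scramble libraries on day -2, then 67.8 and 50.1 on day -1. On day 0 they were 43.2 in Kdm5c siRNA and 30.8 in scramble libraries. Both called peaks were chosen for this comparison after their values were seen, and whether their reads come from mitochondrial DNA was not tested.

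**Figure D3:**
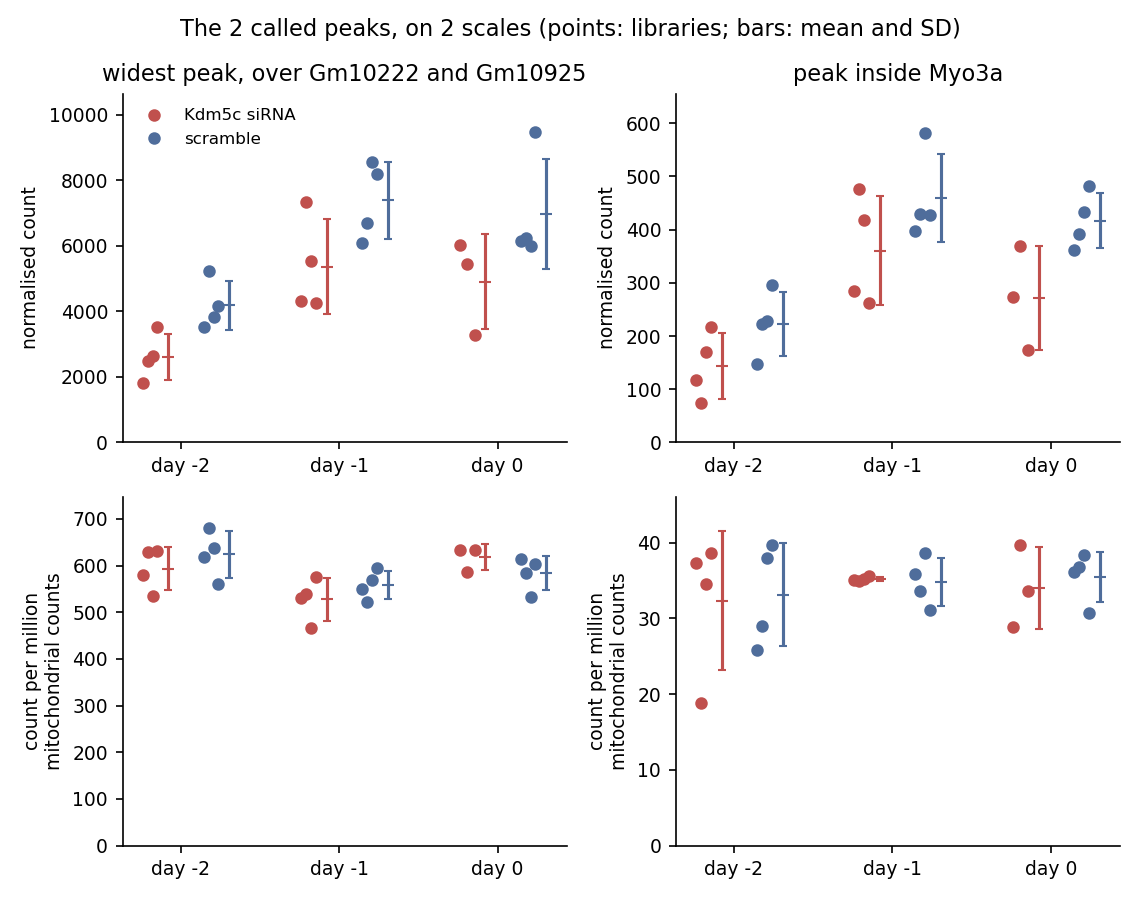
Every library's value for the widest peak (left) and the Myo3a peak (right), as normalised counts (top) and as counts per 1000000 mitochondrial counts (bottom), by day, with Kdm5c siRNA left of scramble and bars for mean and SD. For the widest peak on day -2 the means are 2612 in Kdm5c siRNA and 4182 in scramble libraries on the first scale, and 594 in Kdm5c siRNA and 624 in scramble libraries on the second, and single libraries of the arms overlap on both.

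Other peaks named for the smallest p on each day did not pass the threshold. On day -2 a peak at chr7:47022261-47022952, with Spty2d1 as its nearest start, had 43.4, 43.7, 58.1 and 52.7 normalised counts in Kdm5c siRNA and 88.5, 81.3, 77.9 and 72.4 in scramble libraries. The arms did not overlap, but the adjusted p was 0.98 (log2 -0.68 ± 0.20, edgeR). On day -1 a peak at chr1:189054701-189055447, 47.2 kb from the start of Kctd3, had 47.1, 42.9, 53.6 and 58.6 in Kdm5c siRNA and 34.5, 23.3, 28.0 and 12.8 in scramble libraries (log2 1.04 ± 0.25, adjusted p = 0.27, edgeR). Here too the arms stood apart on that day only: on day 0 they were 30.8, 33.5 and 30.2 in Kdm5c siRNA against 36.0, 18.7, 19.7 and 33.5 in scramble libraries.

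On day 0 a peak at chr5:126537894-126538699, outside coding genes, had 83.1, 86.5 and 73.1 in Kdm5c siRNA and 45.0, 45.1, 45.5 and 28.2 in scramble libraries, with no overlap (log2 0.96 ± 0.21, adjusted p = 0.051, edgeR). It passed the threshold without scramble replicate 1 (log2 1.00) and without the low-count filter (log2 0.98). A peak at chr5:147131932-147132692, 55.0 kb from the start of Polr1d, had 61.6, 44.7 and 59.9 in Kdm5c siRNA and 28.1, 27.5, 36.9 and 22.8 in scramble libraries (log2 0.94 ± 0.25, adjusted p = 0.41, edgeR). In the other direction, a peak at the start of the long non-coding RNA gene Gm40237, chr4:118547064-118548718, had 68.3, 56.7 and 41.8 in Kdm5c siRNA and 77.6, 93.5, 122 and 83.2 in scramble libraries (log2 -0.81 ± 0.19, adjusted p = 0.094, edgeR). It passed without Kdm5c siRNA replicate 1 (-0.96) or scramble replicate 1 (-0.89).

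With the counts scaled by effective library size, the small shifts of day -2 leaned one way. Total-count scaling turned the sign round (median 0.37 in place of -0.04), but it moved all peaks tested too, from 0.0002 to 0.42. On both scales the median of the wide peaks lay below that of all peaks tested. Of the 280 wide peaks with an unadjusted p under 0.05, 69 were higher and 211 lower in Kdm5c siRNA, while over all peaks tested 2.33% were higher and 2.31% lower. Narrow all-day peaks leaned the same way, with 102 higher and 271 lower of 7162 tested and a median log2 fold change of -0.07. Within the wide peaks the lean was in those away from starts, with 21 higher and 82 lower of 1677 inside coding genes and 24 higher and 98 lower of 1749 outside them. At coding starts 21 were higher and 13 lower of 678. The difference between positions was not tested. The lean rested on 1 library: without Kdm5c siRNA replicate 2, the counts were 100 higher and 108 lower and the median log2 fold change was -0.002. Over all 49964 peaks tested, 1062 were then higher and 1132 lower. In replicate 2 the median level of peaks away from starts was -0.22 on the log2 scale relative to the scramble mean, and at coding starts it was -0.01. Without Kdm5c siRNA replicate 3, whose medians were the highest of its arm, the counts were 84 higher and 488 lower (12.9% of wide peaks). Over all 54895 peaks tested, 1906 were then higher and 2202 lower (7.48%). Day -1 had 121 higher (2.85%) and 96 lower (2.26%) in Kdm5c siRNA, beside 2.56% and 2.81% of all peaks tested. Day 0 had 196 higher (4.56%) and 146 lower (3.39%), beside 2.69% and 3.31%. Without Kdm5c siRNA replicate 1 of day 0 there were 169 higher and 177 lower of 4351, beside 660 and 1160 of all 31228 peaks tested. Without scramble replicate 4 of day -1 there were 119 higher and 122 lower of 4294, beside 661 and 747 of all 24964.

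**Figure D4:**
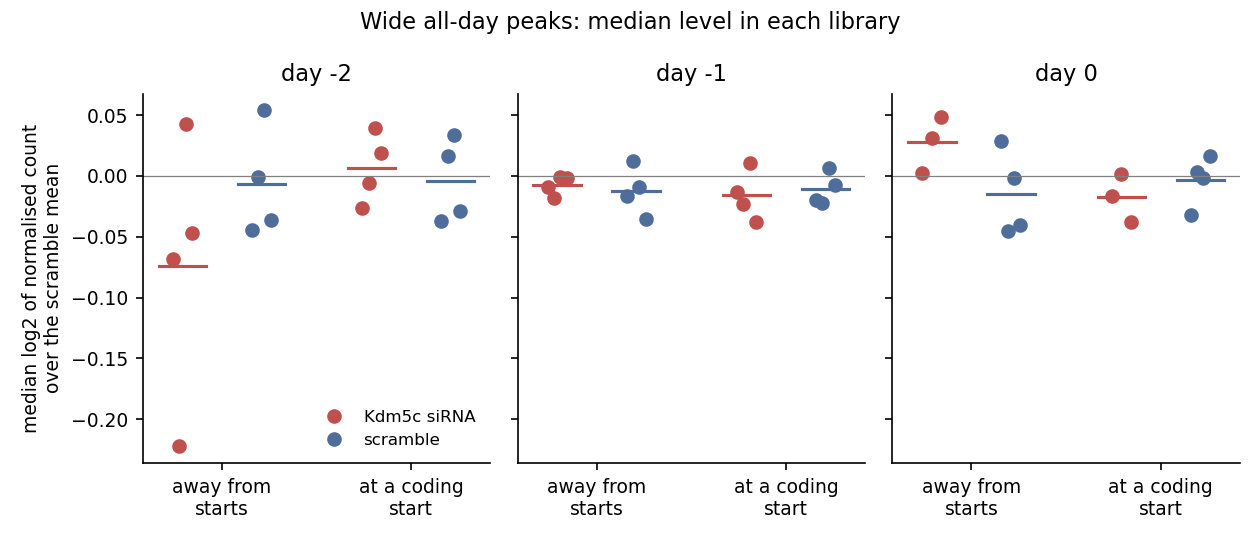
Median over the wide peaks of the log2 ratio of each library's normalised count to the scramble mean of its day, for peaks inside or outside coding genes (away from starts) and peaks at coding starts, with 1 point per library and a line at the mean. Kdm5c siRNA replicate 2 of day -2 lies at -0.22 away from starts, while all other libraries lie between -0.07 and 0.05.

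Whether the siRNA effect differed between days was tested on peaks that paired one to one by at least 50% reciprocal overlap on all 3 days, 14338 peaks of which 3137 were wide ones (70.7%). None of the 3131 wide peaks tested was called for any pair of days, and 0.0% of the 14319 peaks tested were (edgeR). Unadjusted p-values under 0.05 were found for 5.43% of wide peaks for day -1 minus day -2, 5.75% for day 0 minus day -1 and 9.07% for day 0 minus day -2, beside 4.86%, 5.29% and 6.39% of all matched peaks; DESeq2 called 0. The smallest adjusted p, 0.067, was that of chr5:126537894-126538699, whose log2 fold change was 1.2 ± 0.26 higher on day 0 than on day -2. Without Kdm5c siRNA replicate 3 of day -2, 6 differences were called.

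No called peak belonged to the lists of genes that matter in preadipocytes. Wide peaks whose nearest coding start, within 100 kb, belonged to one of 9 gene lists numbered 104. None was called on any day, and 6 (5.77%), 2 (1.92%) and 7 (6.8%) of those tested had an unadjusted p under 0.05 on days -2, -1 and 0, beside 4.63%, 5.37% and 6.0% of all peaks tested. The medians of the log2 fold change came to -0.09, 0.04 and -0.01 over the list peaks.

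Genes of preadipocyte and mesenchymal identity had 13 peaks beside 10 of 27 genes, with median log2 fold changes of -0.01, 0.008 and -0.11 on days -2, -1 and 0. Starts were listed for 16 of the 27 genes. A gene without a listed start could not be counted as nearest, here or in the other lists. The peak with the highest count lay 34.9 kb before Dlk1, which encodes a membrane protein of preadipocytes that holds back fat cell formation. It had 182, 158, 179 and 219 normalised counts in Kdm5c siRNA and 145, 163, 193 and 178 in scramble libraries of day -2. On day 0 the values were 65.7, 92.1 and 102 in Kdm5c siRNA and 135, 104, 107 and 111 in scramble libraries, lower in all 3 siRNA libraries (log2 -0.37 ± 0.16, adjusted p = 0.78, edgeR). A peak 2.46 kb before Wnt10b, whose product is a Wnt ligand that blocks adipogenesis, had 161, 144, 155 and 153 in Kdm5c siRNA and 162, 148, 131 and 177 in scramble libraries of day -2, with the arms overlapping. Beside Cd34, a surface marker of progenitors, 3 peaks were counted although no Cd34 peak was named by the authors. The highest of them had 114, 121, 138 and 108 in Kdm5c siRNA and 145, 189, 157 and 145 in scramble libraries (log2 -0.39 ± 0.15, adjusted p = 0.98, edgeR).

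Adipogenic transcription factors had 9 peaks, beside Cebpb, Nfix, Pparg and Srebf1, with medians of -0.02, -0.01 and -0.15. Of these, 3 had Cebpb as the nearest start, the gene of the C/EBP factor that acts first when differentiation begins. The strongest, 88.8 kb away and over the starts of the long non-coding RNA genes Gm32287 and Gm14321, had 167, 137, 126 and 151 in Kdm5c siRNA and 161, 154, 145 and 179 in scramble libraries of day -2. The arms overlapped, and the log2 fold change was -0.15 ± 0.14 (adjusted p = 0.98, edgeR).

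AP-1 subunit genes, whose products form the dimers that bind the TGANTCA letters, had 9 peaks. A peak 1.40 kb before Junb had 112, 116, 114 and 108 in Kdm5c siRNA and 139, 110, 122 and 138 in scramble libraries of day -2 (log2 -0.18 ± 0.15, adjusted p = 0.98, edgeR). The YAP and TEAD pathway had 10 peaks, 3 of them at coding starts. The start of Amotl2, which encodes an angiomotin-like protein that binds YAP, had 97.9, 89.0, 106 and 116 in Kdm5c siRNA and 93.5, 102, 86.8 and 86.1 in scramble libraries of day -2. On day 0 it had 50.9, 68.8 and 62.1 in Kdm5c siRNA and 102, 92.4, 71.3 and 79.1 in scramble libraries, so that the arms did not overlap, with a log2 fold change of -0.50 ± 0.19 (adjusted p = 0.71, edgeR).

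RUNX and SMAD pathway genes had 9 peaks. The start of Runx1, a transcription factor gene of mesenchymal and blood cells, had 83.1, 89.0, 63.8 and 50.3 in Kdm5c siRNA and 85.9, 70.8, 74.0 and 80.4 in scramble libraries of day -2, the siRNA libraries spreading on both sides of the scramble range. Matrix genes had 18 peaks beside 11 of 32 genes (19 with a listed start), with medians of -0.12, 0.02 and 0.07. One was the start of Fbn1, the gene of the microfibril protein fibrillin-1, with 104, 169, 143 and 113 in Kdm5c siRNA and 121, 129, 154 and 130 in scramble libraries. Actin and adhesion genes had 20 peaks. Itga5, the fibronectin receptor subunit gene, had 3, of which the widest had 182, 179, 177 and 156 in Kdm5c siRNA and 202, 194, 143 and 174 in scramble libraries. The arms overlapped at both genes.

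Cyclin and Myc genes had 5 peaks, all of them with a fold change under 0 on day -2 and a median of -0.27, and 0 of them with an unadjusted p under 0.05. On the later days 3 of them were above 0 and 2 below, with medians of 0.05 on day -1 and 0.04 on day 0. The start of Cdk6, a kinase gene of the G1 phase, had 94.2, 90.5, 102 and 101 in Kdm5c siRNA and 124, 131, 106 and 121 in scramble libraries of day -2, with no overlap (log2 -0.31 ± 0.16, adjusted p = 0.98, edgeR). On day 0 it had 99.2, 91.2 and 89.0 in Kdm5c siRNA and 114, 51.7, 97.1 and 99.3 in scramble libraries, which overlapped. Genes of the glucocorticoid, insulin and cAMP response, the signals of the differentiation cocktail, had 11 peaks, 4 at coding starts. The start of Fkbp5, a glucocorticoid-induced co-chaperone gene, had 97.9, 114, 95.7 and 110 in Kdm5c siRNA and 119, 87.9, 72.0 and 117 in scramble libraries, with the arms overlapping. Nuclear signal at these peaks says nothing of how strongly their genes are transcribed.

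A pair of further starts was chosen after their values were seen. The start of Pdgfa, a growth factor gene whose product acts on fibroblasts and preadipocytes, lay under a peak of 1798 bases with 227, 277, 234 and 204 in Kdm5c siRNA and 203, 195, 257 and 205 in scramble libraries. The start of Rarg, a retinoic acid receptor gene, lay under one of 1923 bases with 288, 312, 245 and 231 in Kdm5c siRNA and 248, 278, 241 and 268 in scramble libraries. Both were called narrower on day 0, at 1013 and 1149 bases, and neither passed the threshold on any day (lowest adjusted p = 0.941, edgeR).

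Of 1005 microRNA hairpins in RefSeq, 0 overlapped a wide peak, 2 lay within 1 kb and 32 within 5 kb of one. These included several hairpins with known roles in fibroblasts and fat cells, chosen after their positions were seen. Mature sequences, with the seed (bases 2 to 8) in capitals, show that a pair of peaks on different chromosomes stand beside miRNAs of one seed family: the peak at chr11:70237456-70238392 beside Mir195a and Mir497, and the peak at chrX:53056789-53057572 beside Mir322 and Mir503.
mmu-miR-195a-5p: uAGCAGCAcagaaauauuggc
mmu-miR-497a-5p: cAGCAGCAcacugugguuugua
mmu-miR-322-5p: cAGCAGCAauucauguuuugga
mmu-miR-503-5p: uAGCAGCGggaacaguacugcag
mmu-miR-21a-5p: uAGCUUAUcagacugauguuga
mmu-miR-130a-3p: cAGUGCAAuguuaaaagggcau
mmu-let-7e-5p: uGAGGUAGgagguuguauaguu

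The first 3 share all 7 seed bases, and miR-503-5p differs in the last of them. The peak beside Mir195a and Mir497, 2.32 and 2.66 kb from the hairpins and over the start of 0610010K14Rik, had 76.9, 95.0, 68.7 and 91.0 normalised counts in Kdm5c siRNA and 67.0, 90.5, 78.9 and 90.1 in scramble libraries of day -2. The peak beside Mir322 and Mir503 had 47.1, 57.3, 47.5 and 45.5 in Kdm5c siRNA and 84.7, 63.0, 32.6 and 53.1 in scramble libraries. A peak 2.55 kb from Mir21a, inside Vmp1, had 86.8, 55.1, 86.7 and 68.3 in Kdm5c siRNA and 96.1, 66.9, 93.7 and 65.2 in scramble libraries. A peak 2.42 kb from Mir130a, whose product is known to target Pparg, had 71.9, 96.5, 101 and 86.2 in Kdm5c siRNA and 73.3, 82.7, 56.2 and 74.8 in scramble libraries (log2 0.33 ± 0.18, adjusted p = 0.98, edgeR). The arms overlapped at all of them, as they did at the peak 1.39 kb from Mirlet7e.

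Between days the wide peaks separated by position, in both arms. Among the 3137 matched ones, levels on day 0 relative to day -2 had a median log2 ratio of -0.10 in Kdm5c siRNA and -0.12 in scramble cells, while matched peaks named by the authors had 0.04 in Kdm5c siRNA and 0.09 in scramble cells on the same scale. Narrow all-day peaks had -0.03 in Kdm5c siRNA and -0.11 in scramble cells. Wide peaks at coding starts went with the named peaks, with medians of 0.05 in Kdm5c siRNA and 0.10 in scramble cells (575 peaks). Those inside coding genes had -0.18 in Kdm5c siRNA and -0.23 in scramble cells (1135 peaks), and those outside had -0.16 in Kdm5c siRNA and -0.25 in scramble cells (1188 peaks). At least 2-fold lower on day 0 were 161 wide peaks in Kdm5c siRNA cells and 265 in scramble cells, and at least 2-fold higher 33 in each arm. Of 4074 narrow peaks, 200 in Kdm5c siRNA and 353 in scramble cells were that much lower, and 139 and 124 higher. Over all 14338 matched peaks, 383 in Kdm5c siRNA and 634 in scramble cells were lower, and 211 and 188 higher. Such declines were thus not confined to wide peaks. On day -1 the same medians were nearer 0, from -0.03 to 0.04 in Kdm5c siRNA and from -0.08 to 0.03 in scramble cells. Because the peaks had been chosen for their width on day -2, a decline afterwards is partly built into the choice, and it was not tested.

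**Figure D5:**
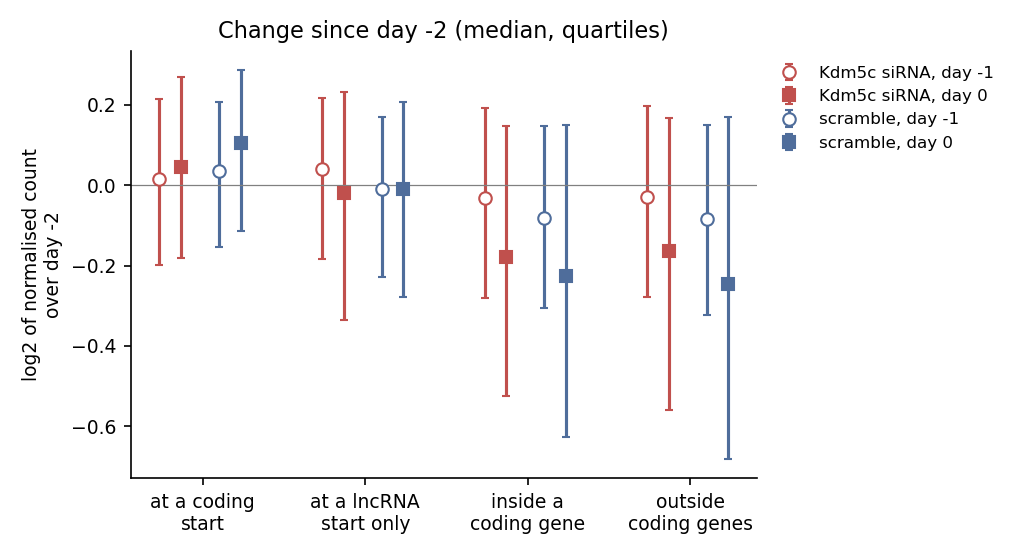
Change of matched wide peaks since day -2 as the log2 ratio of mean normalised counts, in Kdm5c siRNA and scramble cells on day -1 and day 0, by position (points: median over peaks; bars: quartiles). On day 0 the median at coding starts is 0.05 in Kdm5c siRNA and 0.10 in scramble cells, and -0.16 to -0.25 elsewhere in or between coding genes; peaks at starts of long non-coding RNA genes only lie near 0.

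Of the 8 peaks with the largest decline in scramble cells, 5 lay inside coding genes away from starts. One at chr1:174640796-174641475, with Fmn2 as the nearest start in the table, had mean normalised counts of 85.0 ± 24.3, 50.3 ± 12.4 and 18.6 ± 10.1 on days -2, -1 and 0 in Kdm5c siRNA (SD, n = 4, 4 and 3) and 91.3 ± 25.6, 36.8 ± 12.8 and 15.8 ± 6.82 in scramble cells (n = 4 each). Another, over a long non-coding RNA start 119 kb from Tgfb2, had 70.6 ± 12.4, 39.3 ± 7.77 and 22.2 ± 6.22 in Kdm5c siRNA and 67.1 ± 8.30, 30.6 ± 10.5 and 11.6 ± 5.08 in scramble cells. Among those with the largest increase was a peak overlapping a coding gene, 77.2 kb from the start of Tcf7l1, the gene of a Wnt pathway transcription factor, with 70.8 ± 3.04, 185 ± 24.2 and 208 ± 20.7 in Kdm5c siRNA and 83.8 ± 4.91, 204 ± 13.5 and 241 ± 15.4 in scramble cells. A peak 44.6 kb from the start of Igf2r, the gene of a receptor that clears insulin-like growth factor II, had 32.9 ± 10.2, 42.2 ± 9.40 and 83.2 ± 10.8 in Kdm5c siRNA and 28.7 ± 4.73, 51.1 ± 6.82 and 104 ± 9.12 in scramble cells. The largest increase was at chr9:3023465-3025136, in the run of 14 peaks there, with means of 123, 143 and 485 in Kdm5c siRNA and 122, 141 and 587 in scramble cells. Both arms took the same course at each of these peaks. They did not at chr18:20615877-20616595, also among the largest increases in scramble cells. Its low means were 11.3, 10.5 and 4.60 in Kdm5c siRNA and 3.54, 8.62 and 11.7 in scramble cells.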

How the data were processed

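ATAC-seq libraries of 3T3-L1 cells were read from the tables the authors deposited for each day: raw counts per peak, and a normalised table (unit: signal) with gene names for part of the peaks. Per the submitters' processing notes, the tools used include DESeq2 1.24.0, HTSeq 0.9.1, MACS2 2.1.1, Bowtie2 2.2.9 and cutadapt 2.3, on GRCm38 (mm10). The sources used here do not give whether reads were shifted for Tn5, repeats filtered or libraries pooled for peak calling. The deposited signal equals the counts divided by 1 constant per library, so only the counts were tested. Coordinates are as deposited.

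The wide peaks and gene lists were chosen with earlier results of these data known. Each day was fitted on all its peaks with edgeR 4.0.16 (R 4.3.3; TMM, filterByExpr, quasi-likelihood F test, Benjamini-Hochberg over all peaks), with no covariate; the mitochondrial peaks stayed in the library sizes. Normalised counts are counts divided by the effective library size relative to its mean over the libraries of the fit. On later days a wide peak stands for the deposited peak with the greatest overlap. The day comparison used peaks matched at 50% reciprocal overlap in 1 fit of 23 libraries, and log ratios used a pseudocount of 0.5. Alternatives were RLE and total-count scaling, nuclear peaks only, no filter, DESeq2 1.42.0, a replicate block, other width and overlap limits, and leaving out each library. No 2 libraries were identical. The tests were checked on simulated data with a fixed spread, with changes of known size planted in peaks of at least median count. That check of the code gives no rate of missed changes in the real libraries.

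Named peaks are those with an adjusted p under 0.05 or the smallest p on each day (6 a day), the 8 widest, the 8 highest per kb and 3 in dense windows, up to 3 a gene list, 3 on each side of the width limit and 4 at RefSeq starts; others are said to be chosen after their values were seen. Gene starts, hairpins and sequences are from RefSeq on GRCm38.p6. The start annotation covers 27025 genes, and some coding genes are missing from it.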

Additional observations from a re-analysis of the deposited data

Results flagged for a closer look

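In 37 groups of 4 libraries the highest and lowest value were compared with the rest, and 6 groups had a library set far apart. Chance trips this check in about 1 of 20 independent groups. These groups share libraries and include peaks named for the smallest p, so that rate cannot be set against the 6. At the peak inside Gabarapl1, chr6:129540324-129540973, Kdm5c siRNA replicate 4 of day -2 had 77.8 normalised counts where the other 3 had 55.1 to 57.3. At chr15:91615007-91616048, scramble replicate 2 of day -1 had 59.6 and the others 39.3 to 42.0. At chr18:36274686-36275364, Kdm5c siRNA replicate 2 of day -1 had 15.1 and the others 8.68 to 9.10. Scramble replicate 4 of day 0 was apart at both chr1:24611585-24616148, with 9475 against 6002 to 6252, and chr5:126537894-126538699, with 28.2 against 45.0 to 45.5. The share of nuclear counts in the wide peaks was 27.1% in Kdm5c siRNA replicate 4 of day -1, against 28.3% to 28.5% in the other 3.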

How the results depend on the processing

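Total-count scaling moved the medians of all peaks by 0.42, 0.38 and 0.56 (log2) on days -2, -1 and 0; under it 110 wide peaks were called on day -2 and 0 on day 0, and the widest peak's day 0 log2 fold change turned to 0.00091. DESeq2 called 0 on days -2 and 0. A block for replicate number, with numbers that did not pair the libraries (correlations of same-numbered libraries from -0.04 to 0.15), called 3, 1 and 0 on days -2, -1 and 0: under it the Myo3a peak (adjusted p = 0.035) and its neighbour (log2 -1.11, adjusted p = 0.0011) also passed on day -2 and the widest peak on day -1 (adjusted p = 0.0063), while the Myo3a peak of day 0 did not (adjusted p = 0.33, all edgeR). On day 0, nuclear peaks only and no low-count filter each called 2. Leaving out 1 library at a time gave 0 to 6 calls on day -2, 0 on day -1, 0 to 4 on day 0 and 0 to 6 for the difference between days; for that difference, total nuclear counts and 80% reciprocal overlap each gave 1, and 6 came without Kdm5c siRNA replicate 3 of day -2. The causes were not tested. RLE scaling and width limits of 500, 800 or 1000 changed no count of calls. Of the precision of single peaks, on day 0 78.9% of wide peaks had an interval within a 2-fold change either way; the part that depth and having 3 Kdm5c siRNA libraries play in this was not tested. Intervals cover the spread between libraries only.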
